A study of Bos taurus with 34 samples.

Results

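The CXC chemokine ligands are small secreted proteins that guide leukocytes through tissue by binding receptors coupled to G proteins. They were examined here in cattle liver as the genes whose symbol in the authors' deposited table of slick against free animals starts with CXCL and a digit. This rule gave 10 of the 14161 genes tested there. They are CXCL3, CXCL5, CXCL8, CXCL9, CXCL10, CXCL11, CXCL12, CXCL14, CXCL16 and CXCL17. The rule uses symbols and not values, but the family was picked for description with earlier results of these data known.

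The family is usually divided by receptor, as worked out mainly in human and mouse. CXCL9, CXCL10 and CXCL11 are induced by interferons and draw activated T cells and NK cells through CXCR3. CXCL3, CXCL5 and CXCL8 carry a short glutamate-leucine-arginine motif ahead of their first cysteines, are induced through NF-kB and draw neutrophils through CXCR2, with CXCL8 also binding CXCR1. CXCL12 is made constitutively by stromal cells and binds CXCR4 and the scavenging receptor ACKR3, whereas CXCL16 is made as a membrane protein, is shed by proteases and binds CXCR6.

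Daughters of slick bulls that had inherited 1 copy of the SLICK allele (SLICK, 10 samples) were compared with daughters that had inherited 0 copies (FREE, 8 samples). The allele truncates the prolactin receptor and is known for a short hair coat. The labels give Senepol as the breed and liver as the tissue for all 18 samples, which were sequenced from TruSeq stranded mRNA libraries. By sire, 5 SLICK samples came from Blanco and 5 from Lone Ranger, against 1 FREE sample from Blanco and 7 from Lone Ranger, so genotype and sire cannot be fully told apart. The age of the animals is not in the labels. Another 16 samples of the series, with 1 or 2 copies of the allele and SMARTer libraries, are not analysed here.

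Library columns of the tables are headed by numbers found in no sample label. No library could therefore be tied to a genotype. Values of single libraries were not used, and the comparison rests on the authors' own per-gene F test. It gave each gene a log2 fold change, its average level in log2 CPM (read counts scaled to library size), an F and a p. A negative log2 fold change is read from the name of the table as a lower level in SLICK, and this direction was not open to a check on single libraries. The standard errors (SE) and 95% intervals beside the fold changes were computed from the F values of that table.

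The ligands formed an abundant and a scarce set. Averaged over libraries by the authors and divided by gene length, CXCL16 had 5.60, CXCL3 had 5.43 and CXCL12 had 4.56 log2 CPM per kb. CXCL10 followed with 3.51, CXCL9 with 2.68 and CXCL17 with 2.42 log2 CPM per kb. The other 4 ligands were below 1 CPM per kb, with -0.84 for CXCL8, -1.34 for CXCL11, -1.47 for CXCL14 and -2.13 log2 CPM per kb for CXCL5. The spread of these levels over libraries was not computed here, so the order of neighbours among them was not tested. The rule takes only genes that the authors tested, and CXCL2 and CXCL13, which the annotation of the count tables also holds, are outside the comparison.

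None of the 10 ligands passed an adjusted p of 0.05 in the authors' F test, where 0.501% of all genes passed. With an unadjusted p under 0.05 there were 4 of the 10 (CXCL10, CXCL11, CXCL16 and CXCL8), against a background of 16.0% of all genes. These 4 were all negative, and 8.79% of all genes were both negative and under that p. CXCL10 was the 1 ligand under an adjusted p of 0.10, where 2.77% of all genes stood. The authors' deposited table gave all 10 ligands a negative log2 fold change, as it did 51.8% of all genes. Their median was -0.51, beside a median of -0.01 over all genes. Values of the ligands come from the same animals and are not independent of each other. In whole liver, fewer cells of a type and less RNA per cell cannot be told apart.

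**Figure D1:**
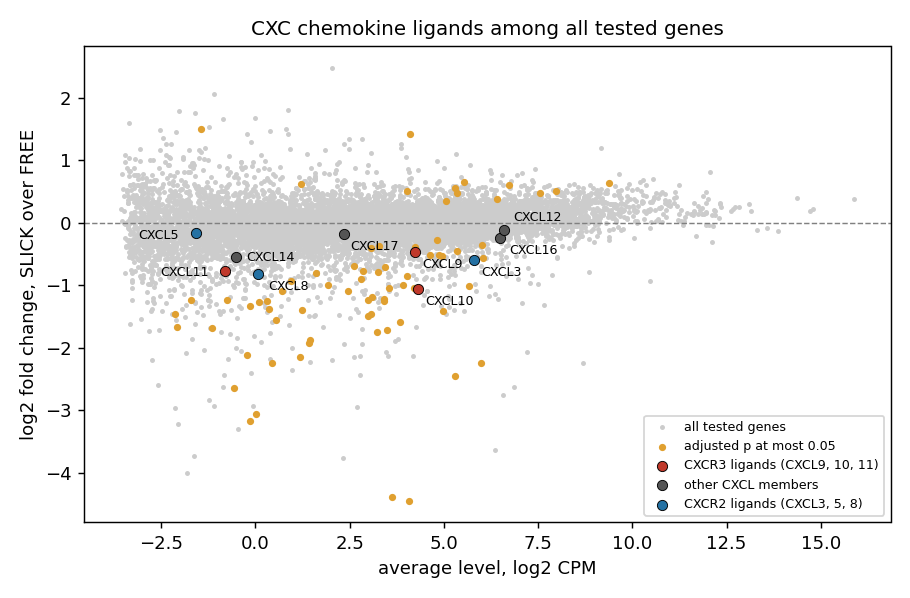
Each grey point is 1 tested gene, with its average level in log2 CPM on the x axis and its log2 fold change of SLICK over FREE on the y axis; orange points had an adjusted p of at most 0.05 and the large points are the 10 CXC ligands. All 10 ligands sit below 0, from -0.11 for CXCL12 to -1.06 for CXCL10, and none is among the genes with an adjusted p of at most 0.05.

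The 3 CXCR3 ligands had negative fold changes of unequal size. CXCL10 lies on chromosome 6 of ARS-UCD1.2 from 90882124 to 90884526 on the - strand (ENSBTAG00000001725). The authors' deposited table gave CXCL10 a log2 fold change of -1.06 (SE 0.28, interval -1.64 to -0.48), which puts the SLICK level at 0.479 times the FREE level. The F test placed CXCL10 at rank 213 of all genes with a p of 0.00111, for which the authors' deposited table has adjusted p = 0.0791. This was the smallest p among the 10 ligands.

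CXCL11 lies from 90902720 to 90904851 on the same strand (ENSBTAG00000005603). The authors' deposited table put CXCL11 at -0.77 log2 units (SE 0.30, interval -1.40 to -0.14), with adjusted p = 0.212 by the F test. CXCL9, from 90856295 to 90863481 (ENSBTAG00000050852), was put at -0.46 log2 units (SE 0.22, interval -0.93 to 0.0044) by the authors' deposited table, with adjusted p = 0.330 by the F test. Average levels of CXCL9 and CXCL10 per kb differed by less than 1 log2 unit. Their fold changes were not tested against each other, since no library could be tied to a group. Their intervals overlap, which is no test of a difference between genes measured in the same libraries.

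Among the 3 CXCR2 ligands, CXCL8 and CXCL3 had the widest errors of all 10 ligands. CXCL8, a neutrophil attractant also called IL-8, lies from 88810418 to 88814572 on the + strand of chromosome 6 (ENSBTAG00000019716). The authors' deposited table gave CXCL8 a value of -0.82 log2 units (SE 0.38, interval -1.62 to -0.03), with adjusted p = 0.304 by the F test. CXCL3, from 89061093 to 89063360 (ENSBTAG00000037778), stood at -0.59 log2 units (SE 0.36, interval -1.34 to 0.16) by the authors' deposited table, with adjusted p = 0.460 by the F test. CXCL5, the scarcest ligand, lies from 88897012 to 88899124 (ENSBTAG00000009812). For CXCL5 the authors' deposited table has -0.17 log2 units (SE 0.27, interval -0.73 to 0.39), with adjusted p = 0.833 by the F test.

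GRO1 also belongs to this group, since RefSeq (assembly ARS-UCD2.0) gives CXCL1 as its synonym, but the rule on symbols left it out. GRO1 was put at -1.26 log2 units (SE 0.30, interval -1.88 to -0.64) by the authors' deposited table, with adjusted p = 0.0599 by the F test. Its average level was -1.75 log2 CPM per kb, between those of CXCL14 and CXCL5. PPBP, the platelet ligand of CXCR2, had the opposite sign, with 0.59 log2 units (interval 0.05 to 1.14) by the authors' deposited table and adjusted p = 0.276 by the F test. CXCL2, CXCL3, CXCL5 and GRO1 are related copies, and reads shared between them could make single values uncertain, which was not tested.

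CXCL12 and CXCL16, both among the 3 most abundant ligands, had the smallest errors. CXCL12 lies from 45022356 to 45051627 on chromosome 28 (ENSBTAG00000005077). The authors' deposited table gave CXCL12 a log2 fold change of -0.11 (SE 0.11, interval -0.34 to 0.12), with adjusted p = 0.700 by the F test. CXCL16, from 26615705 to 26620061 on chromosome 19 (ENSBTAG00000031998), was put at -0.24 log2 units (SE 0.09, interval -0.44 to -0.04) by the authors' deposited table. This is 0.847 times the FREE level, at p = 0.0206 and adjusted p = 0.217 by the authors' F test.

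Of the 1855 exon bases of CXCL16, 425 overlap exons of MED11, a Mediator subunit gene on the opposite strand. MED11 had a positive value, 0.22 log2 units, by the authors' deposited table. The sources used here do not say whether the TruSeq counts kept the strands apart, so reads of CXCL16 and MED11 may be mixed.

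CXCL14 and CXCL17 are epithelial and mucosal ligands with less settled receptors. CXCL14 lies from 47070286 to 47078939 on chromosome 7 (ENSBTAG00000006694), and the authors' deposited table put it at -0.55 log2 units (SE 0.32, interval -1.23 to 0.13), with adjusted p = 0.444 by the F test. CXCL17 lies from 51500305 to 51506901 on chromosome 18 (ENSBTAG00000018652), and the authors' deposited table put it at -0.18 log2 units (SE 0.18, interval -0.55 to 0.19), with adjusted p = 0.705 by the F test. Both intervals include 0.

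**Figure D2:**
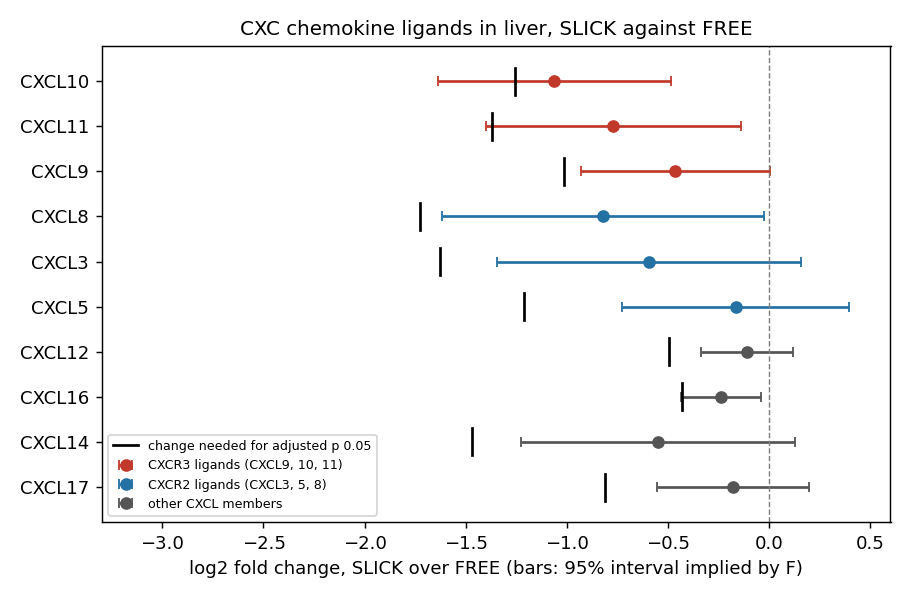
Points are the log2 fold changes of SLICK over FREE for the 10 ligands on the x axis, bars are 95% intervals implied by F, and black ticks mark the change below 0 that each gene would have needed for an adjusted p of 0.05. The intervals of CXCL10, CXCL11, CXCL8 and CXCL16 lie wholly below 0, and every point lies to the right of its tick.

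How large a change the comparison could have called differed between ligands. The largest p that passed an adjusted p of 0.05 in the authors' F test was 0.000227. With its error, CXCL16 would have needed a log2 change of 0.43 and CXCL12 one of 0.50 to reach it. CXCL9 would have needed 1.02, CXCL10 1.26 and CXCL11 1.37. For CXCL5 the bound was 1.21, for CXCL3 it was 1.63 and for CXCL8 it was 1.73 log2 units. CXCL17 would have needed 0.81 and CXCL14 1.47. Smaller estimates in these genes could not have been called in this comparison.

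CXCL3, CXCL10 and CXCL9 were measured with far more error than other genes at their level. The SE of CXCL3 was 4.26 times the median SE of the 1553 genes within 0.5 log2 CPM of it. CXCL10 had 3.08 times and CXCL9 had 2.48 times the median SE of genes at their level. Of the genes at its level, 99.0% had a smaller SE than CXCL3, 98.3% a smaller one than CXCL10 and 96.6% a smaller one than CXCL9. CXCL8 had 1.83 times, CXCL12 had 1.25 times, CXCL11 had 1.21 times and CXCL16 had 1.10 times the median SE, whereas CXCL5 had 0.910 times. These errors hold the spread between libraries that the authors' model left, and which animals carry it was not tested.

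**Figure D3:**
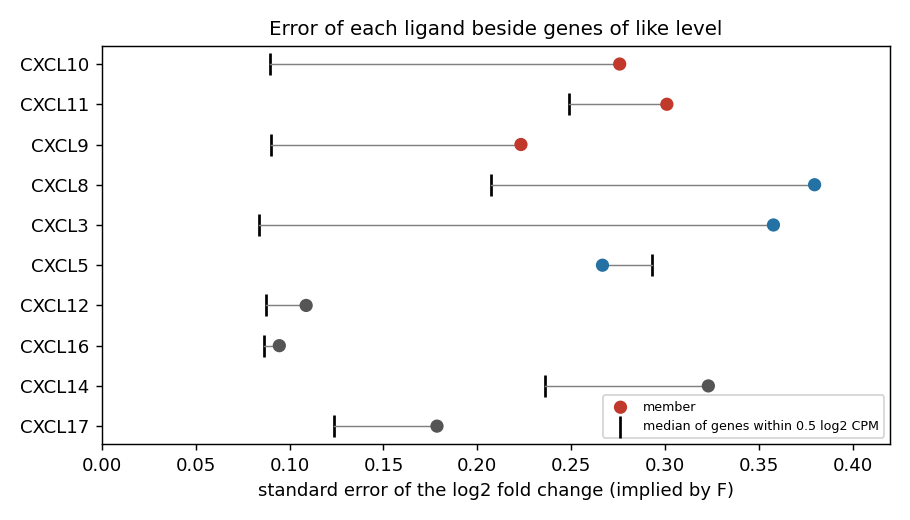
Coloured points are the standard errors of the log2 fold change of the 10 ligands on the x axis (red for CXCR3 ligands, blue for CXCR2 ligands, grey for the others), and black ticks are the median standard errors of genes within 0.5 log2 CPM. CXCL3 stands farthest from its tick at 0.36 against 0.08, and of the 10 ligands CXCL5 alone lies to the left of its tick.

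The receptors were set beside the ligands they bind. Of 8 CXC and atypical receptor genes listed, 7 were tested and 0 passed an adjusted p of 0.05, with 3 at a p under 0.05 by the authors' F test. Over all genes these shares were 0.501% and 16.0%. The median log2 fold change of the receptors was -0.09, and 4 of the 7 were negative. CXCR3, the receptor of CXCL9, CXCL10 and CXCL11, stood at 0.05 log2 units (interval -0.34 to 0.45) by the authors' deposited table. CXCR6, the receptor of CXCL16, stood at 0.05 log2 units (interval -0.19 to 0.30) by the authors' deposited table. The intervals of both include 0.

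The authors' deposited table put CXCR1 at -0.64 and CXCR2 at -0.47 log2 units, both receptors that carry neutrophils toward CXCR2 ligands or CXCL8, with adjusted p = 0.300 and 0.307 by the F test. CXCR4, a receptor of CXCL12 found on many leukocytes, was put at -0.78 log2 units (interval -1.34 to -0.23) by the authors' deposited table, with adjusted p = 0.151 by the F test. The other CXCL12 receptor, ACKR3, was put at 0.10 log2 units by the authors' deposited table, and the B cell receptor CXCR5 at -0.09.

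Genes that carry the signals inducing these ligands, together with genes that restrain those signals, were examined as lists. Because the lists mix both kinds, their counts and medians do not give a direction for the signal. Of 11 tested genes of the interferon gamma input, 0 passed an adjusted p of 0.05 and 4 had a p under 0.05 by the authors' F test, all 4 negative, beside 8.79% of all genes. Their median log2 fold change was -0.15. The authors' deposited table put SOCS1, a feedback inhibitor of JAK kinases, at -1.00 log2 units (adjusted p = 0.0649, F test). The phosphatase PTPN2 was put at -0.18 log2 units (adjusted p = 0.118) by the F test of the authors' deposited table. IFNG itself was not among the genes tested.

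Of 23 tested genes of the NF-kB and cytokine input, 1 fell and 0 rose at an adjusted p of 0.05 by the authors' F test, against 0.410% and 0.0918% of all genes. At a p under 0.05 by the F test there were 9 of the 23, all negative, and 8.79% of all genes were negative and under that p. The median log2 fold change of the 23 was -0.11. The gene that fell was RELB, the NF-kB subunit of the noncanonical pathway, by 0.69 log2 units with adjusted p = 0.0486 by the F test of the authors' deposited table. Its partner NFKB2 was put at -0.37 (adjusted p = 0.0893) and the coactivator BCL3 at -0.48 (adjusted p = 0.137) by the F test of the authors' deposited table. IL1A, a cytokine that induces CXCL8 and its relatives, was put at -0.68 and TNF at -0.20 log2 units by the authors' deposited table, and neither passed. IL1B, which acts on the same receptor as IL1A and was more abundant, was put at -0.01 log2 units by the authors' deposited table.

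The other chemokines were tested in the same way. Of 20 genes, 0 passed an adjusted p of 0.05, while 4 negative and 1 positive had a p under 0.05 by the authors' F test, beside 16.0% of all genes in either direction, and their median log2 fold change was -0.22. The authors' deposited table put CCL2, which draws monocytes, at -1.00 log2 units (interval -1.54 to -0.46; adjusted p = 0.0786, F test) and CCL8 at -1.47 (adjusted p = 0.120, F test). CCL16, a chemokine known from human liver, had the opposite sign, with 0.34 log2 units by the authors' deposited table (adjusted p = 0.164, F test). Among 14 other chemokine receptors 0 passed and 1 had a p under 0.05 by the F test, again beside 16.0% of all genes. This was CCR1, at -1.10 log2 units by the authors' deposited table (adjusted p = 0.0688, F test). The other receptors with the next smallest p were CCR4 at -0.50 and CCR9 at -0.92 log2 units by the authors' deposited table.

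Markers of the cells that make or answer these ligands were set beside them. By the authors' deposited table all 7 tested neutrophil markers were negative, with a median log2 fold change of -0.47 and 4 at a p under 0.05 by the F test, although 0 passed an adjusted p of 0.05. Over all genes 8.79% were negative and under that p. These 7 include CXCR1 and CXCR2, which are also counted among the receptors above and are 2 of the 4. Of the 11 neutrophil markers listed, CSF3R, MMP8, MMP9 and CATHL1 were not among the genes tested. S100A12 was put at -1.14 and LTF at -0.65 by the authors' deposited table, whereas S100A8 was put at -0.10 and MPO at -0.09. T and NK cell markers had a median of 0.03 over 14 genes, with 0 of 14 at a p under 0.05 by the authors' F test. These 14 include CXCR3, CXCR6 and CCL5, which are also counted in the receptor and chemokine lists above. CD3D, a subunit of the T cell receptor complex, was put at 0.14 log2 units by the authors' deposited table. Of 9 cholangiocyte markers 8 were negative, with a median of -0.69, and 0 passed an adjusted p of 0.05 while 5, all negative, had a p under 0.05 by the authors' F test, beside the same 8.79% of all genes.

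By the same table, macrophage and Kupffer cell markers had a median log2 fold change of 0.09 over 12 genes, endothelial markers of 0.12 over 9 and stellate cell and fibroblast markers of -0.05 over 11. B and plasma cell markers had a median of -0.10 over 8 genes, which include CXCR5. Hepatocyte markers had a median of 0.29 over 12 genes, of which 10 were positive and 0 passed an adjusted p of 0.05. Of the 12, 5 had a p under 0.05 by the authors' F test, all positive. Over all 14161 genes, 1022 were positive and under that p. The authors' deposited table put CYP2E1 at 0.81 and CPS1 at 0.49 log2 units. Albumin (ALB), the defining liver transcript, averaged 15.87 log2 CPM and was put at 0.38 log2 units by the authors' deposited table. The summed level of each list per library was not computed, and the part of neutrophils or bile duct cells in the values of the ligands was not tested.

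**Figure D4:**
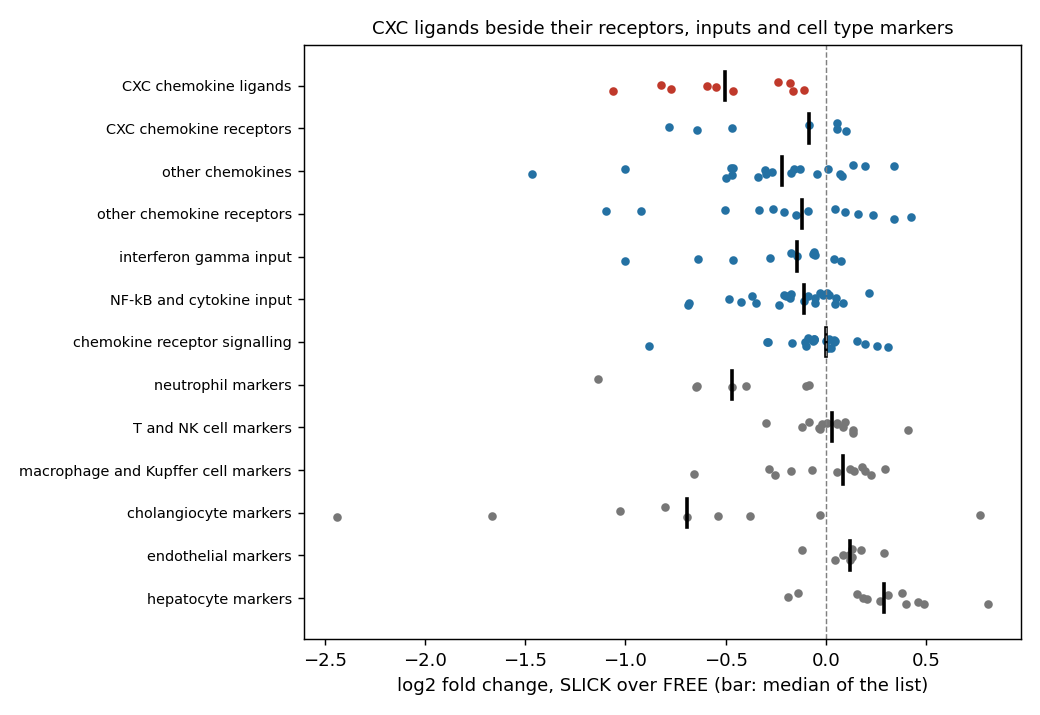
Each point is 1 gene, placed on the x axis by its log2 fold change of SLICK over FREE, in rows for the CXC ligands (red), their receptors and inputs (blue) and cell type markers (grey), with a black bar at the median of each list. The ligands have a median of -0.51, the neutrophil markers one of -0.47 and the cholangiocyte markers one of -0.69, while T and NK cell markers centre at 0.03.

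Most of the ligand genes lie together. On chromosome 6 there are 6 of the 10 ligands, in a cluster with CXCL8, CXCL5 and CXCL3 and, 1793 kb farther on, a cluster with CXCL9, CXCL10 and CXCL11. The other 4 lie alone on chromosomes 7, 18, 19 and 28. Within 100 kb of a ligand there are 21 tested genes that are not ligands by the rule. They include GRO1 and PPBP, the CXC ligands under other symbols, so they are not a set free of chemokines. GRO1 had the lowest log2 fold change of the 21, at -1.26, and PPBP the highest, at 0.59. Of the 21, 0 passed an adjusted p of 0.05, 6 had a p under 0.05 by the authors' F test and 10 were negative. Over all genes these shares were 0.501%, 16.0% and 51.8%. The median log2 fold change of the 21 was 0.03.

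In the cluster with CXCL9, CXCL10 and CXCL11, the gene ART3, a member of the ADP-ribosyltransferase family, spans CXCL10 and CXCL11 on the opposite strand. It shares 0 exon bases with either. The authors' deposited table put ART3 at -0.44 log2 units (interval -0.76 to -0.11), with adjusted p = 0.169 by the F test. On the other side of CXCL9, NAAA, a lipid amidase gene, was put at 0.34 and SDAD1 at -0.10 log2 units by the authors' deposited table, and neither passed. In the cluster with CXCL8, MTHFD2L, a mitochondrial folate enzyme gene near CXCL3, was put at 0.08 log2 units by the authors' deposited table.

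**Figure D5:**
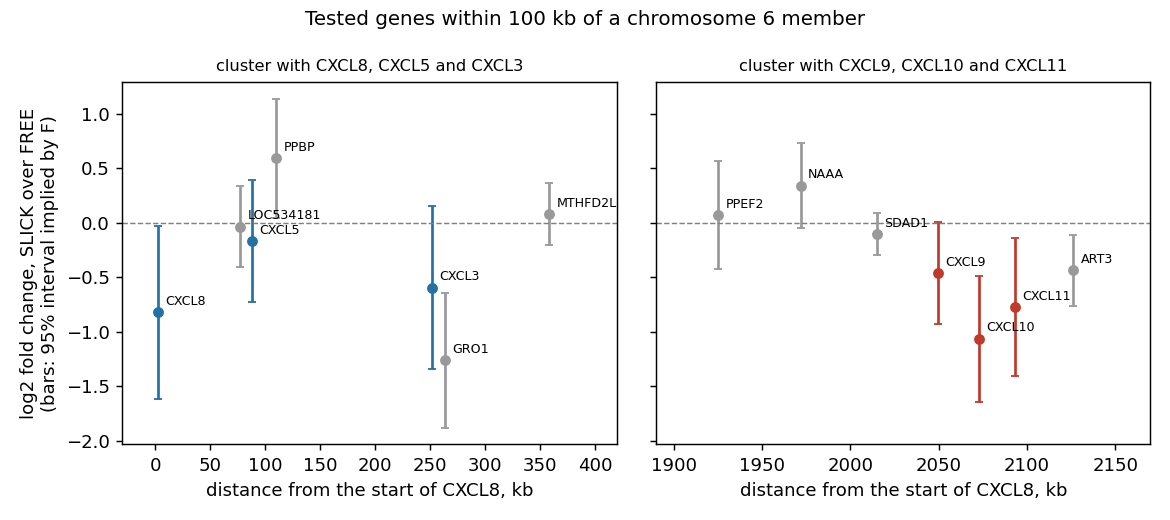
Points are log2 fold changes of SLICK over FREE on the y axis, with 95% intervals implied by F, for the tested genes within 100 kb of a chromosome 6 ligand, placed on the x axis by the distance of their middle from the start of CXCL8 in kb; ligands are coloured and other genes grey. CXCL9, CXCL10 and CXCL11 stand at -0.46, -1.06 and -0.77, with NAAA at 0.34 before them, and PPBP at 0.59 lies on the other side of 0 from CXCL8 at -0.82.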

How the data were processed

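Liver RNA of 18 cattle was sequenced from TruSeq stranded mRNA libraries, per the labels' protocols. HISAT2 2.1.0, edgeR, featureCounts, Subread and the ARS-UCD1.2 build are listed in the submitters' processing notes, which do not say what each was used for. The authors deposited, for each gene, a p-value with its adjusted form, a score (F), and on the log2 scale a fold change and a mean CPM. Gene lengths and positions, another kind of deposited value, come from the count tables. The header of the SMARTer one names featureCounts 1.6.2 with Ensembl release 100. Of the 70 library columns in 4 tables, 0 match a sample label, so they were left out, and the planned count models, with S2 against S1, could not be run and depth was not used. The table of the comparison names 18 libraries, as does the TruSeq count table, and 17 are in both.

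The table has 14246 rows for 14161 distinct genes. The SE is the absolute log2 fold change divided by the square root of F, an approximation, with t intervals on the 18.7 denominator degrees of freedom implied by F and p. The error formula and the adjustment were run on simulated t statistics, for which the formula holds exactly. How well it approximates the error behind the authors' F was not tested. Python 3.11.15 was used with scipy 1.17.1, pandas 2.3.3 and numpy 2.4.6. Genes named were all CXCL members, CXC receptors, CXC genes under other symbols, members of each list past the threshold or with the 3 smallest p, and neighbours within 100 kb. Some genes that this rule took are not reported here. Others named were chosen after their values were seen. The ligands and the 9 pathway and 8 marker lists were chosen with earlier results of these data known. Alternatives were another adjustment, another threshold, a floor on the level and centring. The p-values set the difference between the groups against the spread between libraries that the authors' model left. Whether that model held sire or another covariate is not known here.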

Additional observations from a re-analysis of the deposited data

How the results depend on the processing

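The count of ligands past the threshold was 0 in the authors' deposited table and stayed 0 with a Benjamini-Hochberg adjustment recomputed over the distinct genes, with Bonferroni, and with the 12131 genes averaging at least 0 log2 CPM. At an adjusted p of 0.10 it was 1, CXCL10, against a background of 2.77% of all genes. The adjusted p of CXCL10 was 0.0739 and 0.0725 under the recomputed adjustments. The median log2 fold change of the ligands was -0.51, ran from -0.55 to -0.46 with each ligand left out in turn, and was -0.46 over the 7 ligands averaging at least 0 log2 CPM. Subtracting the median of all genes moved each value by less than 0.01 log2 units. No paired analysis was possible because the library columns carry no replicate numbers. For the same reason no replicate could be left out, and whether 1 animal carries a value is not known. Depth per sample was not used. Precision is limited most for CXCL3 and CXCL8, whose standard errors were 0.36 and 0.38.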

Other observations

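Genes that hold chemokines on cell surfaces or cut them did not move as 1 group. Of 18 heparan sulfate genes tested, 12 had a positive log2 fold change and 0 passed an adjusted p of 0.05. Over all genes 8.79% were negative with a p under 0.05 by the F test of the authors' deposited table. Among the 18 heparan sulfate genes 2 were so, and 0 were positive under that p. These were the proteoglycan cores SDC4, at -0.33 log2 units (adjusted p = 0.0899), and GPC3, at -0.90 (adjusted p = 0.215), by the F test of the authors' deposited table. Of 8 proteases tested 6 were negative, 0 passed and 2, of opposite sign, had a p under 0.05 by the F test of the authors' deposited table. Over all genes 51.8% were negative, 0.501% passed and 16.0% had such a p. DPP4, which trims and inactivates human CXCL10, stood at 0.26 log2 units (interval 0.02 to 0.49) by the authors' deposited table. MMP14, a membrane metalloprotease, stood at -0.20 log2 units (interval -0.39 to -0.01) there. ADAM10 and ADAM17, which shed CXCL16 from the membrane, stood at -0.09 and -0.12 log2 units by the authors' deposited table. Among 23 genes of receptor signalling and adhesion 0 passed and 1 had a p under 0.05 by the F test. The shares over all genes are again 0.501% and 16.0%. The 1 gene was RGS1, a brake on chemokine receptor signalling, at -0.88 log2 units by the authors' deposited table (adjusted p = 0.0698, F test).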
